A study of Homo sapiens with 12 samples.

Results

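The snoRNA host noncoding genes are long noncoding genes whose introns carry small nucleolar RNAs. They were taken by symbol from the deposited gene table, as every SNHG gene with a number plus GAS5, ZFAS1, DANCR, EPB41L4A-AS1, CYTOR and MEG8, which gave 33 of the 58735 genes counted. The symbol rule uses no measured value. GENCODE release 44 (GRCh38) types all 33 as long noncoding genes. By the coordinates of GENCODE or RefSeq, a named snoRNA or scaRNA lies inside 31 of them. No such name was found inside CYTOR and SNHG28.

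The cells were 293T, a human embryonic kidney line, transduced with a lentiviral construct for doxycycline-inducible 4EBP1-4A, a 4EBP1 whose phosphorylation sites are replaced by alanine. Transduced cells were sorted on GFP and no clone is named. One group received DMSO and is also called untreated, and the other received doxycycline at 2 mg/mL, each with 3 RNA-seq and 3 Ribo-seq libraries. The treatment lasted 12 h according to the sample protocols and 2 h according to the series description, and the study's results text names a longer time than either. Cells of both groups were given cycloheximide for 10 min before lysis. There was no group with doxycycline and no construct, so the drug and the protein cannot be told apart. The study calls its replicates biological, but no label states that they were separate cultures, so the p-values measure the spread between these libraries.

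A snoRNA host is spliced, and the snoRNA is then trimmed out of the excised intron. Box C/D snoRNAs guide ribose methylation of ribosomal RNA, box H/ACA snoRNAs guide pseudouridylation, and scaRNAs act in Cajal bodies on spliceosomal RNAs. Many hosts start with a 5′ terminal oligopyrimidine (TOP) tract, which ties translation to mTOR and to 4EBP1. Ribosomes on their short open reading frames can expose the spliced RNA to nonsense-mediated decay, the pathway that removes transcripts with early stop codons. GAS5, named for its rise in growth-arrested cells, is a known example.

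The annotated starts show which hosts have such a tract, counted here as a C at the first base followed by at least 4 bases that are C or T on the transcript strand. In GENCODE canonical transcripts, 4 of the 33 hosts had one (12.1%), against 2.68% of 57698 genes. With the RefSeq starts (GRCh38.p14), 6 of the 28 hosts with an entry had one (21.4%), against 4.07% of 35116. Using either start, 8 of 28 hosts had a tract (28.6%), against 5.42% of 18743 genes with both starts and 75% of 64 ribosomal protein genes. A start that is off by a few bases hides or creates a match, so these are descriptions of the annotation. The first 25 bases of 7 hosts with a tract follow, with the tract in capitals, so that the hosts can be compared with those whose level passed a test.
GAS5 (GENCODE, chr1:173867965-173867989, - strand): CTTTTCgaggtaggagtcgactcct
SNHG29 (GENCODE, chr17:16439037-16439061, + strand): CTTTTCattcccgttgttatggagg
ZFAS1 (both, chr20:49278642-49278666, + strand): CTTTCgcgtctgcggtgcccggagt
SNHG12 (RefSeq, chr1:28581849-28581873, - strand): CCTTTCTCCCCgccgcattcccggt
SNHG5 (RefSeq, chr6:85678709-85678733, - strand): CTTTTacgtcggccttcgcgagcgt
SNHG19 (RefSeq, chr16:2155334-2155358, - strand): CTTTTCggggtcgagtccgaggggg
SNHG32 (RefSeq, chr6:31834916-31834940, + strand): CTTTTTgcgaagtgggctcgtgggt

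GAS5, SNHG29 and SNHG19 share the same first 6 bases. The 3 hosts whose RNA-seq level passed a test in the comparison given later are shown next, at their GENCODE starts. None of them begins with a C, so none has a tract by this count. Anywhere within the first 30 bases, a match was present in DANCR and absent from SNHG16 and SNHG17. By that wider count 15 of the 33 hosts had a match (45.5%), against 31.6% of 57698 genes.
DANCR (chr4:52712501-52712525, + strand): ggcctctttgtcagctggagttgcg
SNHG16 (chr17:76557775-76557799, + strand): gaggtcggccgcgtggctggaagac
SNHG17 (chr20:38435357-38435381, - strand): gtctgtatttccgccggcgcgaaac

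Reads on genes came to 45887231 to 57824136 per RNA-seq library, except for doxycycline replicate 3 with 21687906. In that library 88.4% of reads were not uniquely aligned, against 54.9% to 69.9% in the others, and RNA-seq fold changes are given both with and without it. In Ribo-seq, 210186 to 1002424 reads per library lay on genes, and the 10 most abundant genes took 86.0% to 94.5% of these. EIF4EBP1, the gene the construct carries, was at 153 to 168 CPM (reads per 1000000 reads on genes, with TMM scaling) with DMSO and at 257 to 285 CPM with doxycycline. Its log2 fold change was 0.76 without doxycycline replicate 3 (adjusted p = 8.91e-06, edgeR's quasi-likelihood test) and 0.79 with it (adjusted p = 0.303). All 8 markers of the 293 line were at 1 CPM or more in every RNA-seq library. The summed fibroblast markers were at 12.0 to 14.4 CPM with DMSO and at 13.9 to 29.9 CPM with doxycycline. They were highest in doxycycline replicate 3. The summed skin markers were at 5.09 to 5.69 CPM with DMSO and at 2.48 to 4.99 CPM with doxycycline. Of these, KRT10 was at 1 CPM or more in every RNA-seq library, and KRT5, KRT14 and DCD were at 0. Blood markers summed to 0.28 to 0.45 CPM with DMSO and to 0.21 to 0.34 CPM with doxycycline. The part of these markers in the results was not tested.

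The hosts together received 448854 RNA-seq reads, and their range of abundance was wide. GAS5, SNHG1, SNHG29 and SNHG16 held 61.1% of these reads. Per kilobase of merged exons, GAS5 was at 43.2 CPM, SNHG1 at 41.7, SNHG29 at 41.5 and SNHG16 at 37.5 (means over the 6 libraries). The library ranges of these 4 genes overlapped and all lay above those of SNHG15, at 19.4 CPM per kilobase. Next came SNHG3 at 14.8, SNHG19 at 12.2 and SNHG7 at 12.0 CPM per kilobase, all with overlapping library ranges. Merged exons include introns retained in some transcripts, and by the length of the canonical transcript the order was SNHG29 (837 CPM per kilobase), SNHG16 (435), GAS5 (277) and SNHG1 (143). At the other end, SNHG22, CYTOR and SNHG31 lay at 0.20 to 0.29 CPM per kilobase of merged exons, and SNHG18, MEG8 and SNHG14 had 0 to 7 reads in any RNA-seq library. SNHG27 and SNHG28 had 0 reads in all 12 libraries, which allows up to 0.138 CPM in the shallowest RNA-seq library (3 reads, counting error only). The plot of levels by library shows the 28 hosts that had at least 10 reads in at least 3 libraries and were tested.

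**Figure D1:**
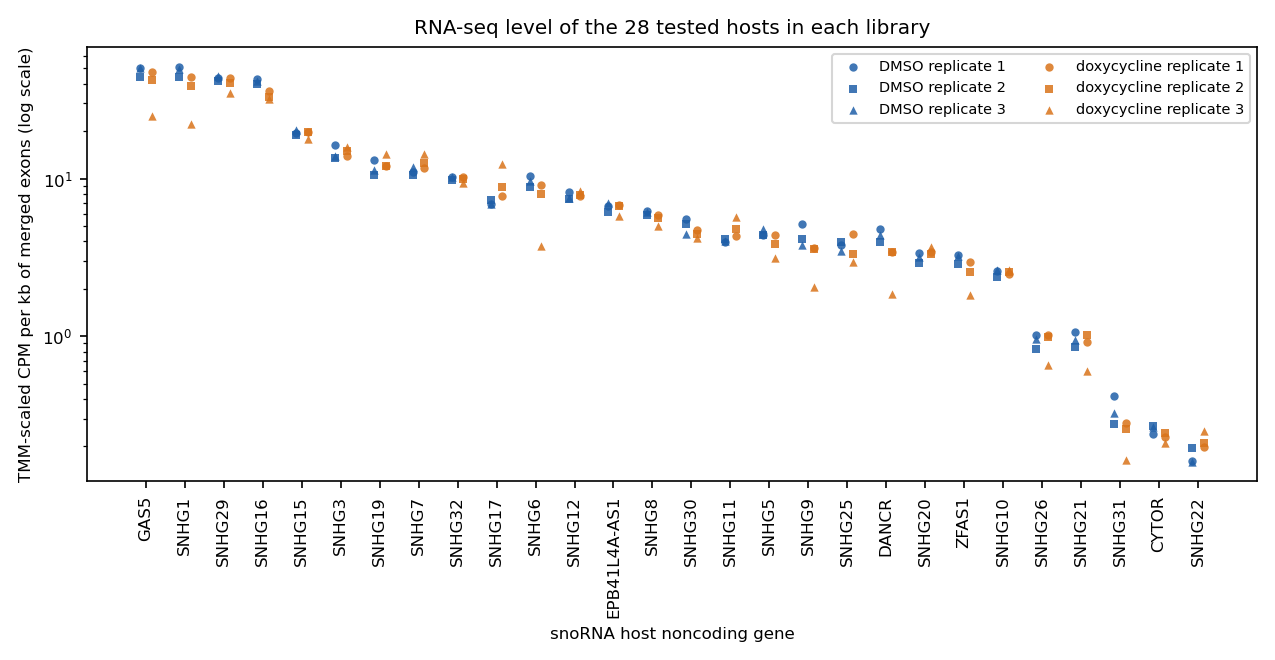
RNA-seq level of the 28 tested hosts, ordered by mean level, as CPM with TMM scaling per kilobase of merged exons on a log axis. Each point is 1 library, blue for DMSO and orange for doxycycline, and the orange triangle of doxycycline replicate 3 is the lowest point in 19 hosts.

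Doxycycline was compared with DMSO to ask whether the RNA level of the hosts moved with 4EBP1-4A. With all 6 libraries, none of the 28 hosts passed an adjusted p of 0.05 by edgeR's quasi-likelihood test (0 lower and 0 higher, against 0% of the 20552 genes tested in either direction). At an unadjusted p under 0.05, 2 were lower (DANCR and SNHG16) and 1 was higher (SNHG17), while 4.3% and 10.7% of all genes were. DESeq2's Wald test also called 0 hosts, and 0.00973% and 0.00487% of all genes lower and higher. Without doxycycline replicate 3, DANCR and SNHG16 fell and SNHG17 rose. The share lower was 7.14% of the hosts, against 3.08% of 21234 genes, and the share higher was 3.57%, against 3.62%. At an unadjusted p under 0.05, 4 hosts were lower (with SNHG1 and ZFAS1) and 2 higher (with SNHG11), against 12.5% and 12.7% of all genes. DESeq2's Wald test added SNHG1 to the hosts that were lower (adjusted p = 0.04999) and called 4.83% and 4.91% of all genes lower and higher.

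DANCR, the host of the box H/ACA snoRNA SNORA26 and a transcript known for holding back differentiation of progenitor cells, lies on chromosome 4 from 52712325 to 52723623. Its RNA-seq level was 49.0, 40.2 and 44.8 CPM in the DMSO libraries and 34.8, 34.8 and 18.9 CPM in the doxycycline libraries. All doxycycline libraries lay below all DMSO libraries, the third far below the other two. The log2 fold change was -0.36 (SE 0.083, adjusted p = 0.0210, edgeR's quasi-likelihood test) without doxycycline replicate 3 and -0.59 (SE 0.23, adjusted p = 0.303) with it. The call without that library was lost when DMSO replicate 1 (-0.29, adjusted p = 0.0750) or doxycycline replicate 2 (-0.36, adjusted p = 0.232) was left out too.

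SNHG16 holds SNORD1A, SNORD1B and SNORD1C, box C/D snoRNAs, on chromosome 17 from 76557727 to 76670985. The DMSO libraries were at 247, 229 and 240 CPM and the doxycycline libraries at 209, 191 and 186 CPM, so the groups did not overlap, and doxycycline replicate 3 was close to replicate 2. Its log2 fold change was -0.25 (SE 0.065, adjusted p = 0.0292) without doxycycline replicate 3 and -0.29 (SE 0.092, adjusted p = 0.303) with it. On top of doxycycline replicate 3, leaving out DMSO replicate 1 gave an adjusted p of 0.0925, leaving out DMSO replicate 3 gave 0.0932 and leaving out doxycycline replicate 2 gave 0.427. Scaled by library totals alone, the value was -0.20 and the adjusted p 0.0565. Of its exon bases, 28.5% lie opposite a protein-coding gene (ENSG00000284526), and since the sources name no strand setting, reads there cannot be told apart.

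SNHG17, on chromosome 20 from 38419638 to 38435409, carries the SNORA71 snoRNAs. It was at 82.2, 87.3 and 82.1 CPM with DMSO and at 92.1, 104.7 and 146 CPM with doxycycline. Every doxycycline library was above the DMSO libraries, and doxycycline replicate 3 was the highest. The log2 fold change was 0.23 (SE 0.069, adjusted p = 0.0497) without doxycycline replicate 3 and 0.45 (SE 0.17, adjusted p = 0.303) with it. The call without that library was lost with DESeq2's size factors (adjusted p = 0.0518) and without DMSO replicate 1 (0.133), DMSO replicate 3 (0.165) or doxycycline replicate 2 (0.577). For each of DANCR, SNHG16 and SNHG17 the exact permutation test over the 6 libraries, two-sided, gave p = 0.1, the smallest that 3 against 3 allows.

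**Figure D2:**
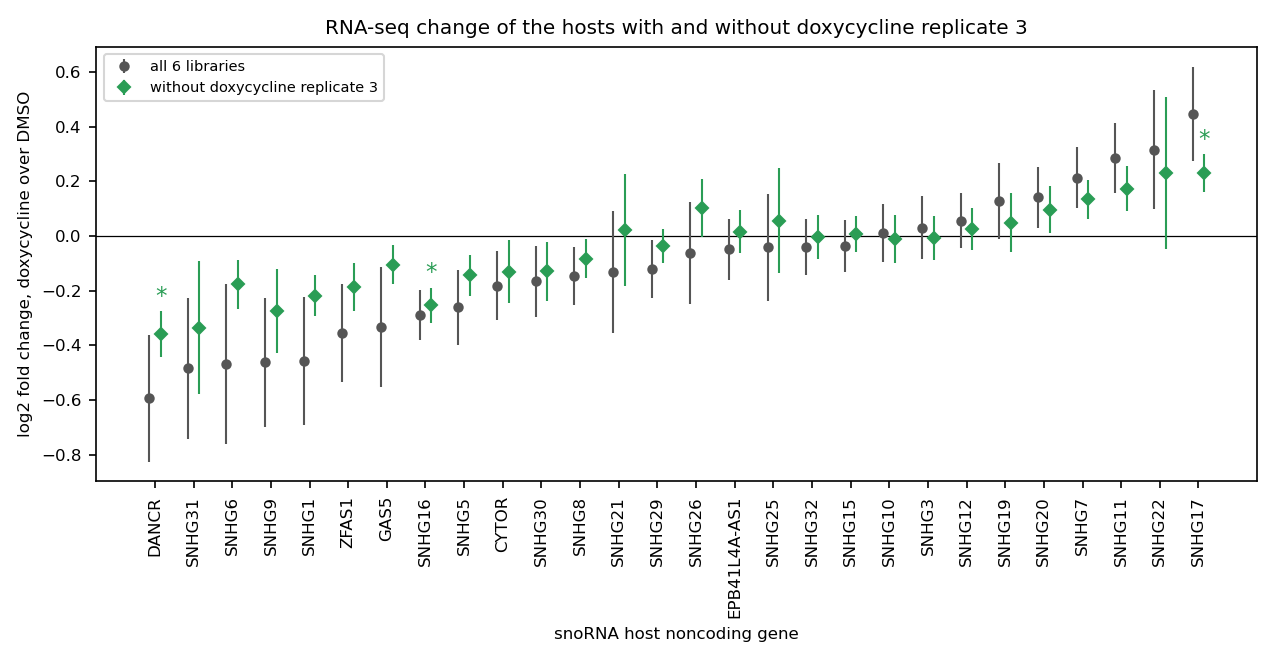
Log2 fold change of each tested host, doxycycline over DMSO, with all 6 RNA-seq libraries (grey) and without doxycycline replicate 3 (green), bars showing 1 SE. Stars mark DANCR, SNHG16 and SNHG17, which passed an adjusted p of 0.05 in the comparison without that library, and the grey values spread from -0.59 to 0.45.

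GAS5 and SNHG1 were both lowest in doxycycline replicate 3. GAS5 was at 246, 218 and 247 CPM with DMSO and at 235, 207 and 124 CPM with doxycycline. The groups overlapped through doxycycline replicate 1 alone, and replicate 3 lay furthest below. Its log2 fold change was -0.33 (SE 0.22, adjusted p = 0.357) with all libraries and -0.10 (SE 0.072, adjusted p = 0.392) without doxycycline replicate 3, with a 95% interval of the latter from -0.25 to 0.037. SNHG1, host of 8 box C/D snoRNAs, was at 203, 175 and 197 CPM with DMSO and at 175, 154 and 88.8 CPM with doxycycline. Doxycycline replicate 1 reached the level of DMSO replicate 2, and doxycycline replicate 3 was below every other library. SNHG1 gave -0.46 (SE 0.23, adjusted p = 0.305) and, without doxycycline replicate 3, -0.22 (SE 0.074, adjusted p = 0.0785).

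SNHG29, the host with the most reads, holds SNORD49A, SNORD49B and SNORD65 and starts with the tract shown above. It was at 387, 374 and 399 CPM with DMSO and at 391, 363 and 313 CPM with doxycycline. The groups overlapped, and the log2 fold change of -0.12 (SE 0.11, adjusted p = 0.468) became -0.037 (SE 0.062, adjusted p = 0.761) without doxycycline replicate 3. The 95% interval of that last value ran from -0.16 to 0.086. SNHG15, host of SNORA9, was at 77.2, 74.9 and 80.1 CPM and at 77.4, 78.0 and 70.6 CPM, a difference of -0.038 on the log2 scale with all libraries and 0.0074 without doxycycline replicate 3 (adjusted p = 0.958).

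Another 3 of the 8 hosts with the highest level per kilobase of merged exons had no difference past the test either. By the length of the canonical transcript, SNHG3 ranked 8, SNHG7 10 and SNHG19 11. SNHG3, host of SNORA73A and SNORA73B, was at 67.0, 55.5 and 56.7 CPM with DMSO and at 57.2, 61.6 and 64.4 CPM with doxycycline. It was the only host among those tested for which doxycycline replicate 3 was neither the highest nor the lowest library, and its log2 fold changes were 0.031 and -0.0084. SNHG19, host of SNORD60, was at 8.08, 6.49 and 6.92 CPM and at 7.42, 7.40 and 8.74 CPM, again overlapping (log2 fold changes 0.13 and 0.048). SNHG7, which holds SNORA17A and SNORA17B, was at 53.6, 51.7 and 57.6 CPM and at 57.4, 61.7 and 69.8 CPM, with log2 fold changes of 0.21 (SE 0.11, adjusted p = 0.307) and 0.13 (SE 0.071, adjusted p = 0.251). Of its exon bases 30.3% lie opposite DIPK1B.

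Over the 28 hosts, the groups did not overlap in 7. The doxycycline libraries were all lower for DANCR, SNHG16, SNHG5 and SNHG9 (14.3% of hosts, against 18.9% of all genes tested) and all higher for SNHG17, SNHG11 and SNHG22 (10.7%, against 19.7%). SNHG5, whose own start has a tract, was at 55.6, 55.5 and 60.4 CPM with DMSO and at 54.98, 48.4 and 39.6 CPM with doxycycline (log2 fold change -0.26, adjusted p = 0.307, and -0.14 without doxycycline replicate 3). The gap between its groups was small, from 54.98 to 55.5 CPM. SNHG11, host of SNORA60 and SNORA71E, was at 17.8, 18.6 and 18.3 CPM with DMSO and at 19.5, 21.6 and 25.7 CPM with doxycycline (0.29, adjusted p = 0.303, and 0.17 without doxycycline replicate 3). SNHG9 and SNHG22, at 3.15 CPM or less in every library, gave -0.46 and 0.31, and -0.27 and 0.23 without doxycycline replicate 3.

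Doxycycline replicate 3 was the extreme library for most hosts. It was the lowest of 6 in 19 hosts (67.9%, against 41.2% of all genes tested) and the highest in 8 (28.6%, against 40.3%). Summed over the hosts, the TMM-scaled level was 1604 to 1734 CPM with DMSO, 1637 and 1550 CPM in doxycycline replicates 1 and 2, and 1347 CPM in replicate 3. Scaled by library totals alone, the drop was smaller. These sums were 1579 to 1666 CPM with DMSO and 1623, 1579 and 1479 CPM in doxycycline replicates 1, 2 and 3. SNHG6, host of SNORD87, had 26.4, 22.3 and 24.5 CPM with DMSO and 23.0, 20.1 and 9.45 CPM with doxycycline. ZFAS1, whose 3 snoRNAs are of the SNORD12 family, was at 27.3, 24.02 and 26.9 CPM and at 24.6, 21.2 and 15.2 CPM. Both were above their lowest DMSO library in doxycycline replicate 1, below every DMSO library in the other two, and lowest in replicate 3. MCMDC2 lies opposite 58.9% of the SNHG6 exon bases. The plot of deviations from the DMSO mean shows this spread for 8 hosts. The part of depth and of reads not uniquely aligned in it was not tested.

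**Figure D3:**
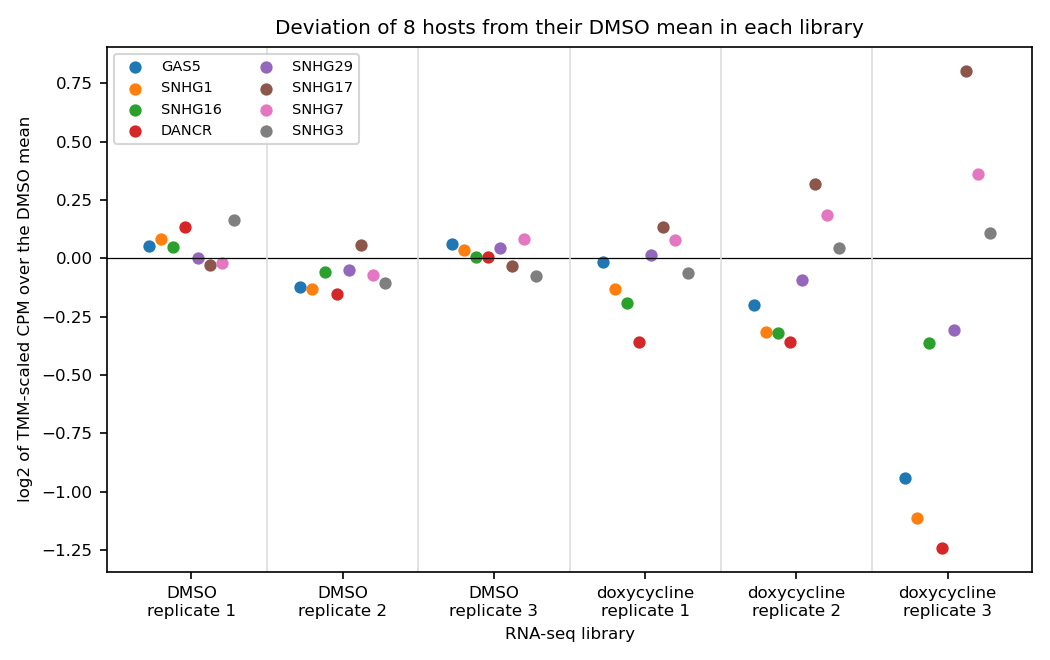
Log2 of the TMM-scaled CPM of 8 hosts over their DMSO mean, for each of the 6 RNA-seq libraries. The points lie closest together in the DMSO libraries and spread most in doxycycline replicate 3, from DANCR, SNHG1 and GAS5 at the bottom to SNHG17 at the top.

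The hosts can be grouped by the kind of snoRNA they carry, and the groups are described here with no test between them. The median log2 fold change over the 28 hosts was -0.092 with all libraries (19 below 0) and -0.010 without doxycycline replicate 3 (16 below 0), against 0.0029 and -0.00025 for all genes tested. Scaled by library totals, the hosts' medians were -0.00047 (14 below and 14 above 0) and 0.047 (12 below and 16 above 0), against 0.097 and 0.055 for all genes. The 11 tested box C/D hosts, such as GAS5, SNHG1, SNHG5 and ZFAS1, had medians of -0.26 and -0.13, with 10 and 9 of them below 0. Leaving out 1 more library in the second comparison gave -0.20 without doxycycline replicate 1, -0.16 without DMSO replicate 2, -0.10 without DMSO replicate 3, -0.077 without DMSO replicate 1 and -0.056 without doxycycline replicate 2 (7 of 11 below 0). The 11 box H/ACA hosts, which include both DANCR and SNHG17, had medians of -0.038 and 0.0074. Those of the 4 scaRNA hosts SNHG10, SNHG20, SNHG21 and SNHG22 were 0.077 and 0.059. Scaled by library totals, 8 and 7 of the 11 box C/D hosts were below 0 (medians -0.17 and -0.075), and the medians of the box H/ACA hosts were 0.060 and 0.064.

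DANCR, SNHG16 and SNHG17, the hosts that passed the test, had no tract at an annotated start. The same held for 21 of the 28 tested hosts, and a link between tract and call was not tested. The 7 tested hosts with a tract had medians of -0.12 with all libraries and -0.037 without doxycycline replicate 3. By edgeR's test 0 of them passed in either comparison, 1 was lower at an unadjusted p under 0.05 in the second, and DESeq2's Wald test called 0. The 21 other tested hosts had medians of -0.063 and -0.0084. Of 16 tested mRNAs that have a TOP tract and encode no ribosomal protein, 0 passed in either comparison by edgeR's quasi-likelihood test (medians -0.25 and -0.11). Without doxycycline replicate 3, 5 were lower and 2 higher at an unadjusted p under 0.05, and DESeq2's Wald test called 1 lower. EEF2, the elongation factor that moves the ribosome along, gave 0.27 and 0.13 (adjusted p = 0.303 and 0.170), and RACK1, a protein of the small ribosomal subunit's surface, gave -0.037 and -0.011.

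The snoRNA genes themselves could be followed only in part, since 17 of the 189 that lie inside the hosts in GENCODE were tested. By edgeR's test and by DESeq2's Wald test 0 passed in either comparison, 1 was higher at an unadjusted p under 0.05 by edgeR in each, and the medians were -0.018 and 0.040. The most abundant, SNORA73B inside SNHG3, had a mean of 189 CPM with DMSO and 176 CPM with doxycycline (-0.10, adjusted p = 0.608). SCARNA13, inside SNHG10, had means of 78.9 and 69.4 CPM (-0.18, adjusted p = 0.388). Without doxycycline replicate 3 these values were 0.015 for SNORA73B and -0.070 for SCARNA13. Inside SNHG17, SNORA71C gave 0.73, SNORA71D 0.44 and SNORA71B 0.38 with all libraries (adjusted p = 0.303 for each), and SNORA71A -0.0027. Without doxycycline replicate 3 they gave 0.25, 0.18, 0.32 and 0.027 in the same order, with adjusted p = 0.0892 for SNORA71B. Many of these genes lie within exons of a host transcript, where reads of the host and of the snoRNA cannot be told apart.

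Genes of the decay and snoRNA pathways were set beside the hosts. Without doxycycline replicate 3, 3.08% of all genes tested fell and 3.62% rose. Of 19 nonsense-mediated decay factors, 1 fell and 4 rose in that comparison, and 0 and 0 when DMSO replicate 1, DMSO replicate 3 or doxycycline replicate 2 was left out too. PNRC2, which links UPF1 to decapping, gave -0.34 (adjusted p = 0.0338, -0.57 with all libraries), UPF3B of the exon junction branch 0.30 (adjusted p = 0.0292, 0.22 with all) and the endonuclease SMG6 0.27 (adjusted p = 0.0290, 0.42 with all). Of 17 mRNAs known as decay targets, CHAC1 (-0.81, adjusted p = 0.0104) and ATF4 (-0.27, adjusted p = 0.0248) fell and 0 rose, and with all libraries they gave -0.72 and -0.26. Both are also genes of the integrated stress response. DESeq2's Wald test called 1 target lower. Leaving out DMSO replicate 1, 2 or 3 as well gave 3, 4 or 1 targets lower, beside 134, 1375 or 211 of all genes. Among 8 snoRNP core proteins, FBL, the methyltransferase of box C/D snoRNPs, rose by 0.26 (adjusted p = 0.0361, 0.48 with all libraries), and the other 7 did not pass. The call of a core protein was lost without DMSO replicate 1, DMSO replicate 3 or doxycycline replicate 2. With all 6 libraries 0 of these genes passed edgeR's or DESeq2's test, while 1, 2 and 0 were lower and 4, 0 and 1 higher at an unadjusted p under 0.05 for the decay factors, decay targets and core proteins. Of 10 snoRNP assembly factors, such as NOLC1 (0.041, 0.010 with all libraries) and RUVBL2 (0.12, 0.26 with all), 0 passed edgeR's test without doxycycline replicate 3, 1 was lower at an unadjusted p under 0.05 and DESeq2's Wald test called 1 lower.

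The protein-coding snoRNA hosts served as the closest comparison. Of the 244 tested without doxycycline replicate 3, 10 fell and 9 rose, against 3.08% and 3.62% of all genes, and the median log2 fold change was -0.044. With all libraries 0 of 243 passed edgeR's test or DESeq2's, 10 were lower and 19 higher at an unadjusted p under 0.05 by edgeR, and the median was -0.13. Leaving out 1 more library gave 0 to 30 lower and 0 to 14 higher, with 0 and 0 without doxycycline replicate 2. Among those called, the lowest values were those of TMEM167A (-0.45, -0.74 with all libraries) and GTF2A1, a subunit of the general transcription factor TFIIA (-0.37, -0.56 with all). The highest were those of EP400, a chromatin remodeler (0.32, 0.47 with all), and the potassium channel gene KCNC4 (0.29, 0.48 with all). The noncoding hosts, with a median of -0.010 in the same comparison, were not tested against them. For 12 tested long noncoding RNAs of another list, the median was -0.088 in that comparison and 0 passed by edgeR's test or DESeq2's. At an unadjusted p under 0.05 by edgeR, 1 was lower and 1 higher. Most lists of this kind hold abundant RNAs, but TERC was at 0.13 to 0.55 CPM here. MALAT1, a nuclear speckle RNA, gave -0.0094 (-0.11 with all libraries) and NORAD, which binds Pumilio proteins, -0.12 in either comparison.

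Footprints on the hosts were scarce. The 6 Ribo-seq libraries together held 157 reads on the 33 hosts, of which 107 lay on SNHG31. No read fell on 22 hosts, 9 had 1 to 9 reads and 2 had at least 10. Genes without a footprint read were common elsewhere too. They numbered 131 of 273 protein-coding snoRNA hosts, 12701 of 14701 other long noncoding genes and 10818 of 19831 protein-coding genes. Per 100000 RNA-seq reads the hosts had 35.0 footprint reads, and 11.1 without SNHG31. By the same measure the protein-coding snoRNA hosts had 17.2, the TOP mRNAs without ribosomal proteins 81.6 and the decay targets 4.67. A list of 18 other long noncoding RNAs had 9.66, and the other long noncoding genes had 14487. Not all of the 18 were abundant here, since RMRP, RPPH1 and RN7SK had 0 RNA-seq reads in every library. All protein-coding genes had 1212, or 94.9 when the 20 genes with the most Ribo-seq reads were left out. These 20 genes were left out of that last value only. These ratios pool libraries of both groups and were not tested.

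SNHG31 lies on chromosome 2 from 214810181 to 214963575. Its footprint reads numbered 3, 32 and 32 in the DMSO libraries and 26, 6 and 8 in the doxycycline libraries. The groups overlapped in these raw counts, which are not scaled for depth. The 3 reads came from the shallowest library, DMSO replicate 1 with 210186 reads on genes. Doxycycline replicate 2 had 6 reads among 524944, so the lowest count was not the lowest level. SNHG31 was a rare transcript, with 213 RNA-seq reads in all and 0.42 to 1.06 CPM per library. Its footprint reads per 100000 RNA-seq reads therefore came to 50235. Its RNA-seq log2 fold change was -0.48 (SE 0.26, adjusted p = 0.309), or -0.33 without doxycycline replicate 3, its Ribo-seq log2 fold change -0.40 (SE 1.32, adjusted p = 0.978) and its change in TE 0.13 (SE 0.92, adjusted p = 0.967). TE here is translational efficiency, the footprint level relative to the RNA level, tested as the interaction of assay and treatment.

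Footprint reads on SNHG16 numbered 0, 3 and 5 with DMSO and 0, 2 and 0 with doxycycline, which overlap. Its Ribo-seq log2 fold change was -1.39 (SE 1.81, adjusted p = 0.887) and its change in TE -1.22 (SE 1.57, adjusted p = 0.745). Neither host passed, 0 of 2 in each direction by edgeR's test in Ribo-seq (0% of 1607 genes tested) and in TE (0.15% of 1334 genes lower, 0% higher), and 0 at an unadjusted p under 0.05 or by DESeq2's Wald test. GAS5 had 5 reads in DMSO replicate 3 and 3 in doxycycline replicate 3, SNHG1 had 7 in all, and the 9 reads of SNHG6 came from DMSO replicate 2 alone. At 3 reads, the smallest level that could be told from 0 was 2.99 to 14.3 CPM per Ribo-seq library, so a change in the footprints of the tract-bearing hosts was not detectable at this depth.

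**Figure D4:**
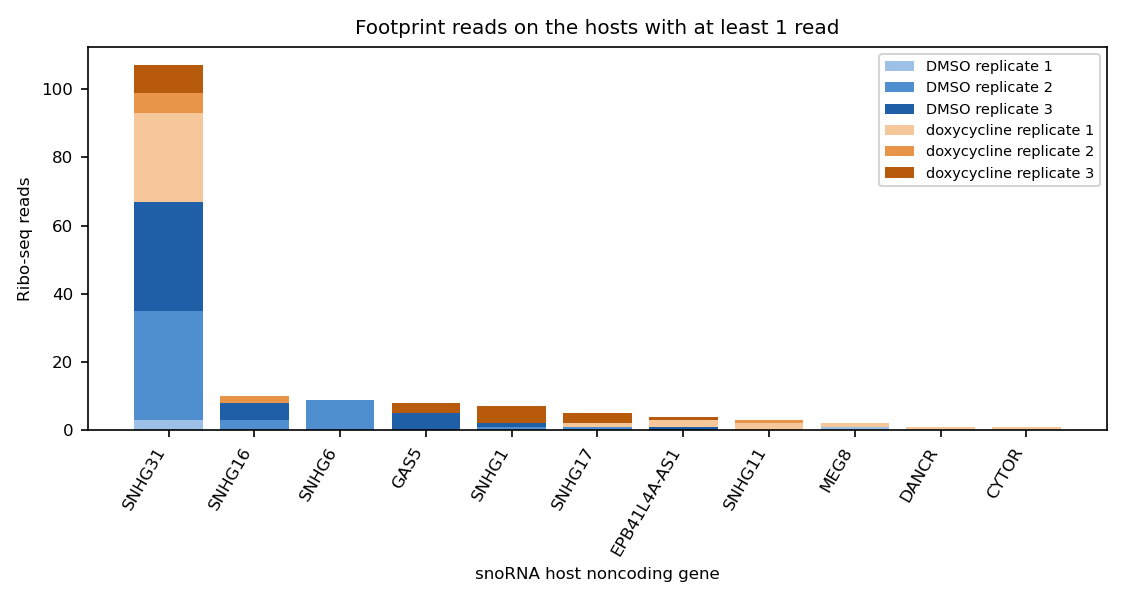
Ribo-seq reads on the 11 hosts with at least 1 read, as bars from 0 stacked by library, blue for DMSO and orange for doxycycline. SNHG31 holds 107 of the 157 reads and the other hosts have at most 10.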

How the data were processed

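Ribo-seq and RNA-seq of 293T cells with inducible 4EBP1-4A were used, 12 libraries in all. The raw read counts per gene were deposited by the authors, who trimmed and removed ribosomal RNA from the Ribo-seq reads and mapped both assays to GRCh38 with STAR. The labels name GRCh37 and Ensembl release 75. Strand use in counting is not stated. Reads without a gene, 69.1% to 94.1% of RNA-seq and 97.1% to 99.1% of Ribo-seq reads, stayed out of library sizes and tests. The second table gave symbols only. Its dispersions, p-values, TE values and log2 TE changes are the authors' own comparison and were not used.

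Gene IDs matched GENCODE release 44 for 58207 of 58735 genes (99.1%). Transcript starts came from GENCODE 44 and RefSeq. No RefSeq start was used for 5 hosts.

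Counts were tested with edgeR 4.0.16 (R 4.3.3), its quasi-likelihood F-test with TMM factors, and p-values were Benjamini-Hochberg adjusted over all genes tested (0.05). The RNA-seq test took genes that reached 10 reads in 3 libraries or more (2 without doxycycline replicate 3), the Ribo-seq test with at least 10 reads over the 6 libraries, and the TE test with at least 10 per assay. RiboDiff, named in the methods for TE, was not run. CPM are TMM-scaled counts per 1000000 reads on genes. The tests were also tried on simulated counts. Python 3.11.15, pandas 2.3.3, scipy 1.17.1 and matplotlib 3.10.9 were used.

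As alternatives, scaling used library totals or the size factors of DESeq2, the filter was dropped or raised to 60 reads, and the test was DESeq2's Wald test (1.42.0) or edgeR's likelihood ratio test. Blocks for the replicate number and the culture were added, and every replicate was omitted once. Values in every library are given for the 8 hosts with the highest level per kilobase, those called in either RNA-seq comparison and those with at least 10 Ribo-seq reads. SNHG5, SNHG6, SNHG9, SNHG11, SNHG22 and ZFAS1 were named after their values were seen. From other lists, the 2 called genes with the largest rise and fall were named, or the 2 with the highest level per kilobase where none was called (SNORA71 genes were added after their values were seen). The hosts and lists were chosen with earlier results of these data known.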

Additional observations from a re-analysis of the deposited data

How the results depend on the processing

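With all 6 libraries, 0 hosts were called under the other scalings, filters and tests, and leaving out each replicate in turn gave 0 to 2 hosts lower and 0 to 1 higher, the calls appearing without doxycycline replicate 3. Without that library, library totals left 1 host lower (DANCR) and 1 higher, with 333 and 1420 of all 21234 genes. DESeq2's size factors left 2 hosts lower and 0 higher, with 657 and 735 of all genes. Leaving out a further DMSO replicate gave 0 to 3 hosts lower and 0 to 1 higher. Over all genes the same fits called 134 to 1375 lower and 149 to 1408 higher, so the host counts moved with those of all genes. Without doxycycline replicate 1 or 2, the lone doxycycline library is assumed to vary like the others. The median without doxycycline replicate 3 was 0.047 with library totals. Hosts with doxycycline libraries all below DMSO were 2, and all above 7, with library totals, and 4 to 12 and 3 to 7 with 1 replicate left out. Groups separate more easily for any gene when a library is missing. No share over all genes is given for these settings, so the counts show nothing particular to the hosts.

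Same-numbered libraries correlated in their deviations at r = 0.46, -0.45 and 0.025 in RNA-seq and -0.13, 0.023 and -0.057 in Ribo-seq. Not every library correlated best with its own number. With 3 libraries per group, these values cannot decide whether same-numbered libraries were prepared together. A replicate block called 0 hosts with all libraries and in Ribo-seq and TE, and without doxycycline replicate 3 it called 3 lower (DANCR, SNHG1, SNHG16) and 2 higher (SNHG17, SNHG7), with 2151 and 2074 genes lower and higher against 654 and 769.

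Log2 fold changes near 0 turned sign. With all libraries, library totals gave 0.060 for SNHG15, and with 1 replicate left out SNHG15 ranged from -0.063 to 0.0074 (without doxycycline replicate 3) and SNHG3 from -0.019 to 0.12. Without doxycycline replicate 3, library totals gave 0.019 for SNHG29 and 0.049 for SNHG3. Leaving out 1 more replicate gave -0.092 to 0.016 for SNHG29, -0.015 to 0.033 for SNHG15, -0.063 to 0.082 for SNHG3 and -0.019 to 0.15 for SNHG19. The cause was not tested. Of the values of single hosts under an alternative, 391 kept direction and side of the threshold, 10 lost and 8 gained a call and 12 turned sign. The Ribo-seq depth limits footprints to the 2 hosts with at least 10 reads.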
